A study of Mus musculus with 6 samples.

Results

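The genes described here make and shape fatty acids in oligodendrocyte lineage cells. They are 10 genes of the 55492 in the deposited expression table, found by their gene symbols: *Acly*, *Acaca*, *Fasn*, *Scd1*, *Scd2*, *Fads2*, *Elovl1*, *Elovl5*, *Elovl6* and *Elovl7*. Each symbol stood for 1 row of the table. The RNA came from cells of whole mouse brains at 16 days of age that were purified on microbeads against O4, a lipid antigen on the surface of late progenitors and immature oligodendrocytes. There were 3 WT mice and 3 *Npc1*-/- mice, 1 poly(A) RNA library from each, and no treatment in either group. *Npc1*-/- mice carried the germline *Npc1* nih allele, which is not limited to O4+ cells, and were F1 hybrids of BALB/cJ and C57BL6/J parents. The study states that littermates were genotyped before use and names no separate background for the WT mice. NPC1 moves unesterified cholesterol out of late endosomes and lysosomes, and the comparison asks how its loss affects gene expression in these cells during myelination.

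Fatty acids are built in the cytosol. ATP-citrate lyase (*Acly*) splits citrate into acetyl-CoA, acetyl-CoA carboxylase (*Acaca*) turns part of it into malonyl-CoA, and fatty acid synthase (*Fasn*) joins these units into palmitate. At the endoplasmic reticulum, ELOVL enzymes lengthen the chain and desaturases put in double bonds, the SCD enzymes in saturated chains and FADS2 in polyunsaturated ones. Myelin is rich in very long and monounsaturated chains, and oligodendrocytes make much of this lipid themselves. The transcription factors of the SREBP family drive many of these genes together with those of cholesterol synthesis.

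Each library held between 40250000 and 50250000 fragments, as estimated from the spacing of low FPKM values. Expression is given as scaled TPM (TPM, a length-corrected share of all transcripts, divided by a size factor for the sample), which compares genes per unit of transcript length. The size factors lay between 1.04 and 1.295 in WT and between 0.727 and 1.10 in *Npc1*-/- samples. *Npc1*, the gene that carries the mutation, had scaled values of 41.1, 45.5 and 43.9 in the WT mice against 3.72, 5.17 and 4.35 in the *Npc1*-/- mice (replicates 1, 2 and 3, the order used throughout). *Npc1*-/- replicate 3 was the only sample with more than 0.01 TPM of *Xist* (15.6 TPM as deposited) and the only one with *Ddx3y* listed at 0. The study used roughly as many male as female mice in all and does not give the sex of each mouse. Any part of sex in the genotype differences was not tested. The markers of myelinating oligodendrocytes (8 genes, led by *Mbp*) summed to a scaled TPM of 173221 to 244596 in WT and of 219113 to 433524 in *Npc1*-/- samples, against 447 to 613 and 318 to 598 for 6 progenitor markers. All 8 myelinating markers had a positive fold change, with a median of 0.34 on the log2 scale and none called, and 2 of the 6 progenitor markers did. For 6 markers of immature oligodendrocytes the sums were 1977 to 3152 and 2870 to 5698, with 2 positive and 4 negative fold changes. Transcripts of other cells were also present. The summed level of 6 microglia markers was 135 to 213 in WT and 64.4 to 109 in *Npc1*-/- samples, and all 6 had a negative fold change. For 5 endothelial and mural markers the sums were 628 to 913 and 422 to 502, again with 5 negative fold changes. For 7 astrocyte markers they were 413 to 480 and 286 to 522, with 6 negative fold changes, and for 8 neuron markers 171 to 205 and 210 to 263, with 7 positive ones. In the limma test used below, 2 neuron markers were called higher and 1 microglia marker lower, and no other marker was called. Of all genes tested, 0.4% were called higher and 0.413% lower. No marker of these lists was at 0 in every sample. In such bulk samples, fewer cells of a type and less RNA per cell cannot be told apart.

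All 10 genes were well expressed. *Scd2* had by far the highest level in WT cells, with a scaled TPM of 685 ± 20.2 (SD, n = 3). *Scd1* followed with 362 ± 78.3 (SD, n = 3), and the values of both lay above those of every other gene of the 10 in each sample. *Fasn* (91.4), *Fads2* (78.8), *Elovl1* (74.9), *Acly* (70.5) and *Elovl5* (60.9) formed a middle range of WT means, and *Acaca* (43.3), *Elovl6* (36.8) and *Elovl7* (27.7) were lowest. Among neighbours in this order, the WT values overlapped between *Fasn* and *Fads2*, between *Fads2* and *Elovl1*, and between *Acaca* and *Elovl6*, so these pairs cannot be ranked. In *Npc1*-/- cells the order of the means was the same, except that *Fads2* (61.5) came below *Elovl1* (102), *Acly* (78.1) and *Elovl5* (67.4). Even *Elovl7*, the lowest of the 10, rested on about 2660 fragments or more in each sample, taking its longest annotated transcript. None was removed by the filter on low values (mean TPM under 0.5).

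**Figure D1:**
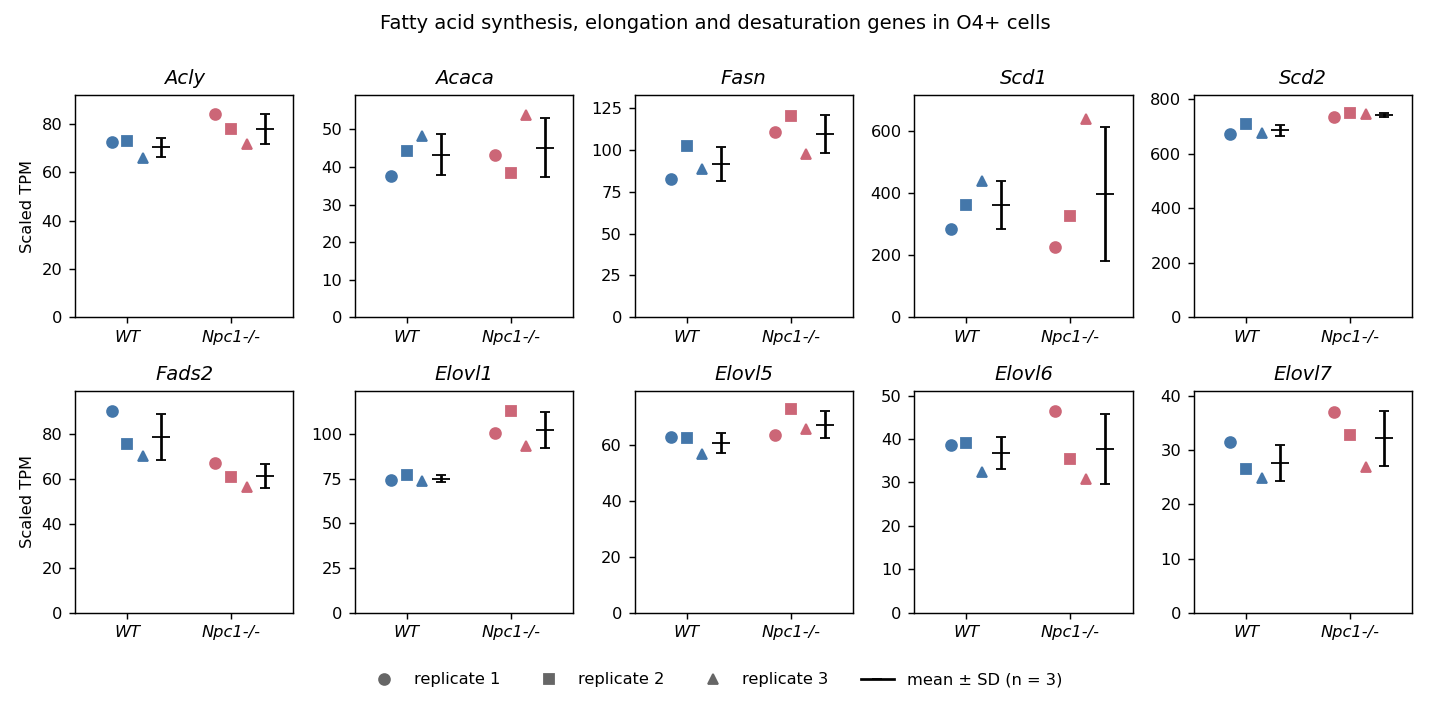
Scaled TPM (linear axes from 0) of the 10 genes in each of 3 WT (blue) and 3 *Npc1*-/- (red) samples, with the mean and SD of each genotype in black. *Elovl1* lies higher and *Fads2* lower in all 3 *Npc1*-/- samples, while *Scd1* ranges from 227 to 641 within the *Npc1*-/- group.

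Between the genotypes, none of the 10 genes was called differentially expressed by the test used here. By limma, 0 of 10 met the limits of an adjusted p below 0.05 and a log2 fold change of 0.1 or more in size, where 0.813% of all 15245 genes tested passed (0.4% higher and 0.413% lower). This fit called 61 genes higher in all. The study, with DESeq2 on counts, reported more than that among genes with gained promoter acetylation alone. A gene without a call is therefore not shown to be unchanged. The smallest adjusted p was 0.0633, for *Elovl1*, and 2 genes (*Elovl1* and *Fads2*) had an unadjusted p below 0.05. The fold change of *Npc1*-/- relative to WT was positive for 9 genes and negative for *Fads2*, with a median of 0.13 on the log2 scale against 0.01 over all genes tested. In 3 genes (*Scd2*, *Elovl1* and *Elovl5*) every *Npc1*-/- sample exceeded every WT sample, and in *Fads2* every one lay below. These 4 of 10 compare with 27.5% of all genes tested that did not overlap, 13.3% higher and 14.2% lower. These fold changes depend on the scaling. On TPM as deposited the median over all genes was −0.33, and only *Elovl1* stayed above 0 (0.07). Relative to that median, 7 genes were higher and *Fads2*, *Scd1* and *Elovl6* lower. With quantile normalization *Acaca*, *Scd1*, *Scd2* and *Elovl6* turned negative, whereas *Elovl1* (0.33) and *Fads2* (−0.45) kept their direction.

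**Figure D2:**
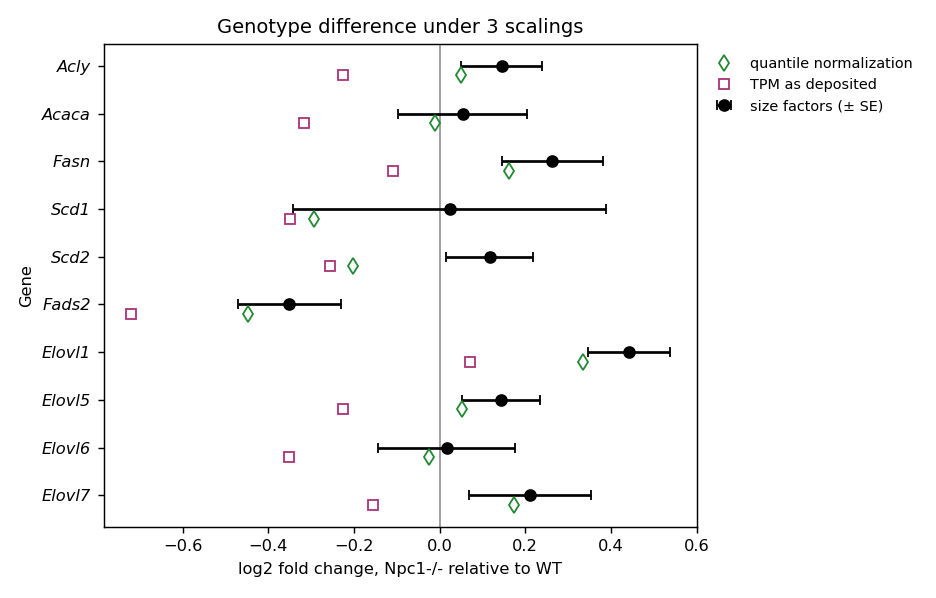
Log2 fold change (*Npc1*-/- relative to WT) of each gene on TPM divided by size factors (black, ± SE from limma), with quantile normalization (green diamonds) and on TPM as deposited (purple squares). *Elovl1* is right of 0 and *Fads2* left of 0 on all 3 scales, and TPM as deposited shifts each gene to the left.

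In the first steps of the pathway no gene passed the test, and all 3 overlapped between genotypes. *Acly* (ENSMUSG00000020917, GRCm38 chromosome 11, minus strand, 100476353 to 100528000) showed 72.6, 72.8 and 65.9 scaled TPM in the WT mice, compared with 84.3, 78.1 and 71.8 in the *Npc1*-/- mice. The lowest *Npc1*-/- value fell inside the WT range, and the log2 fold change of 0.15 (95% confidence interval −0.077 to 0.37) did not pass the test (adjusted p = 0.424 by limma). *Acaca* (ENSMUSG00000020532, chromosome 11, plus strand, 84129672 to 84401651) makes malonyl-CoA, the rate-limiting step of synthesis. It had 37.6, 44.2 and 48.2 in WT and 43.3, 38.3 and 53.9 in *Npc1*-/- cells, with full overlap, and a log2 fold change of 0.05 (−0.30 to 0.41, adjusted p = 0.876 by limma). Its sign changed when WT replicate 1 (−0.044) or *Npc1*-/- replicate 3 (−0.084) was left out. *Acaca* overlaps *Gm11437* on the other strand and *Gm37391* on its own, and whether reads were counted by strand is not given in the sources used here.

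*Fasn* (ENSMUSG00000025153, chromosome 11, minus strand, 120805846 to 120824547) leaned upward most among these 3 genes. The WT mice had 82.9, 103 and 88.6 scaled TPM, and the *Npc1*-/- mice 111, 120.4 and 97.8. Only *Npc1*-/- replicate 3 fell inside the WT range. The log2 fold change was 0.26 (95% confidence interval −0.016 to 0.54, adjusted p = 0.248 by limma), and it stayed between 0.19 and 0.35 whichever sample was left out. The ratio of *Fasn* to *Acaca* within a sample, which needs no size factor, was 2.21, 2.32 and 1.84 in WT and 2.56, 3.14 and 1.81 in *Npc1*-/- samples. The ratio was highest in 2 *Npc1*-/- samples and lowest in the remaining one, so the groups overlapped (two-sided exact permutation test, p = 0.5, or 0.625 after adjustment over 5 ratios, where 0.1 is the smallest p that 3 samples against 3 allow).

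Windows from 250 bases before to 50 bases after the transcription start were in the RefSeq table (GRCm38.p6) for 8 of the 10 genes, 9 windows in all. *Scd1* and *Scd2* had none. They were searched on both strands for 4 sets of letters: CCAAT (the CCAAT box, bound by NF-Y), TCACNCCAC (a sterol regulatory element), CACGTG (an E-box) and GGGCGG (a GC box, bound by Sp1). CCAAT occurred in 4 of the 9 windows and in 37.4% of all 32851 windows in the table, GGGCGG in 5 and in 35.7%, CACGTG in 1 and in 7.15%, and TCACNCCAC in 0 and in 1.24%. A match is no evidence of binding, and the absence of one speaks only of these letters in this window. The windows of 3 genes are shown, with matches in capitals: *Fasn*, whose promoter is a standard example of control by SREBP, *Elovl1*, with the largest positive fold change of the 10, and *Fads2*, with the only negative one.
Fasn, chr11:120824498-120824797, minus strand: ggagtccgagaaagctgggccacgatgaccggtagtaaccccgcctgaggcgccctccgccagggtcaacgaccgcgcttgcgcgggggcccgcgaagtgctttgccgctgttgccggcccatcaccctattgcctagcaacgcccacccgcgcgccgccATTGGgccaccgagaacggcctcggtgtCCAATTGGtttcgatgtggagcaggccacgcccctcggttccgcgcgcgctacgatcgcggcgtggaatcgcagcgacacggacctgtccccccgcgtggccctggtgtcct
Elovl1, chr4:118427843-118428142, plus strand: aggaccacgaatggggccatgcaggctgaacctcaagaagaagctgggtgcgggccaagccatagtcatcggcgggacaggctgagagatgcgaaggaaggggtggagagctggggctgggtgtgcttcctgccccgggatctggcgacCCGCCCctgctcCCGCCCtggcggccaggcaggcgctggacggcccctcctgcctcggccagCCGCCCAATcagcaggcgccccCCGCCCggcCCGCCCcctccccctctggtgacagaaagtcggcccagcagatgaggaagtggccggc
Fads2, chr19:10101454-10101753, minus strand: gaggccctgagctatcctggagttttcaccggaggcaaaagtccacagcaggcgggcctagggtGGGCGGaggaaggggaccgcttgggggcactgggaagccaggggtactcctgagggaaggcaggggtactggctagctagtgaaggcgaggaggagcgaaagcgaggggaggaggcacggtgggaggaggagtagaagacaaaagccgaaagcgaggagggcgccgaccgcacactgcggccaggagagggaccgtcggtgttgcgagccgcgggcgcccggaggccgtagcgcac
The *Fasn* window holds 3 CCAAT boxes, of which 2 on opposite strands overlap, and no GC box. The *Elovl1* window (the upstream one of 2 for this gene) holds 5 GC boxes and 1 CCAAT box, which overlaps a GC box. In the *Fads2* window there is 1 GC box and none of the other motifs.

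The stearoyl-CoA desaturases, which make oleate and palmitoleate from saturated chains, were the most abundant genes of the 10. *Scd2* (ENSMUSG00000025203), the main form in brain, lies on the plus strand of chromosome 19 from 44293674 to 44306864, and *Scd1* (ENSMUSG00000037071) on the minus strand from 44394455 to 44407879. *Scd2* reached 672, 708 and 675 scaled TPM in the WT mice, compared with 735, 749 and 746 in the *Npc1*-/- mice. The groups did not overlap (p = 0.1 in a two-sided exact permutation test), but the log2 fold change was only 0.12 (95% confidence interval −0.12 to 0.36, adjusted p = 0.56 by limma). It was negative on TPM as deposited (−0.26) and with quantile normalization (−0.20). *Scd1* had 283, 363 and 440 in WT and 227, 326 and 641 in *Npc1*-/- cells, so that the *Npc1*-/- samples held both the lowest and the highest value. Its log2 fold change was 0.02 with a wide interval (−0.83 to 0.88, adjusted p = 0.978 by limma). Leaving out *Npc1*-/- replicate 3 gave −0.39 and leaving out *Npc1*-/- replicate 1 gave 0.36.

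Within the genotypes, *Scd1* and *Scd2* were at opposite ends. The pooled SD between mice of one genotype was 0.58 on the log2 scale for *Scd1*, larger than that of 98.2% of the 9150 genes whose mean TPM was 5 or more. For *Scd2* it was 0.032, and only 0.754% of these genes had a smaller one. The narrow spread of *Scd2* is one of scaled values: its TPM as deposited was 870, 784 and 701 in WT and 809, 640 and 542 in *Npc1*-/- samples. The ratio of *Scd1* to *Scd2* within a sample was 0.422, 0.512 and 0.652 in the WT mice, compared with 0.309, 0.435 and 0.86 in the *Npc1*-/- mice. The *Npc1*-/- range enclosed that of WT (log2 difference −0.094, two-sided exact permutation test, p = 0.9, also after adjustment over 5 ratios). The samples of each genotype had the same order for *Scd1* as for *Mobp*, a myelin gene named outside the naming rule, at 17731, 26621 and 29577 scaled TPM in the WT mice, compared with 22537, 40984 and 56490 in the *Npc1*-/- mice. Both genes also had this order on TPM as deposited. It is not particular to them on scaled TPM, where *Me1*, *Hacd1* and *Cyb5r3* had it too. Size factors fell from replicate 1 to 3 in WT (1.295, 1.106 and 1.04) and in *Npc1*-/- samples (1.10, 0.855 and 0.727), which raises scaled values in this order. Whether *Mobp* and *Scd1* share a source of variation was not tested.

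Reads could in principle be shared between these paralogs, and a stretch of their coding sequences shows how far they differ. The aligned coding bases of *Scd1* and *Scd2* (GENCODE M21) were identical at 90.3% of positions and those of *Scd1* and *Scd3* at 91.5%. No run of bases as long as 1 read was common to the annotated transcripts of *Scd1* and *Scd2*. *Scd1* and *Scd3* shared 35 such runs, of 3398 in *Scd3*, so the value of *Scd3* is partly uncertain. A stretch of 90 coding bases that aligns without gaps in all 4 mouse genes (from base 301 of *Scd2*, the first position searched) is printed with capitals where a gene differs from *Scd2*.
Scd1: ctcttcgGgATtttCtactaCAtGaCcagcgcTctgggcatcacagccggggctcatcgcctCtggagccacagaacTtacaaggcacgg
Scd2: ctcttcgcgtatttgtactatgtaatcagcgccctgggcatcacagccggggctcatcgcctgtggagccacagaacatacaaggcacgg
Scd3: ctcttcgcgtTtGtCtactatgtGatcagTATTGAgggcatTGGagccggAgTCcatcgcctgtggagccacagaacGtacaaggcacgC
Scd4: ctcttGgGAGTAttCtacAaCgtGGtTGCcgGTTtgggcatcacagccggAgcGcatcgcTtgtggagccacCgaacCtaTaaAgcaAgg
In this stretch *Scd1* differs from *Scd2* at 11 bases, *Scd3* at 18 and *Scd4* at 25.

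*Scd3*, a lowly expressed paralog, had the largest fold change of the pathway genes listed. It stood at 1.35, 2.30 and 2.37 scaled TPM in the WT mice, compared with 5.85, 10.5 and 18.2 in the *Npc1*-/- mice. The groups did not overlap, and the log2 fold change was 2.15 (standard error 0.38), although the adjusted p of 0.0528 by limma missed the threshold. It remained between 1.78 and 2.54 whichever sample was left out, and the adjusted p ranged from 0.011 to 0.201 over the alternatives. It passed on TPM as deposited (0.011), with quantile normalization (0.0487), at a mean TPM of 5 or more (0.0412), with the replicate block (0.0134, or 0.0131 with the length curve) and without *Npc1*-/- replicate 3 (0.0437). The mean of 5 was reached only through the *Npc1*-/- samples, so that pass adds no support. TPM as deposited was 1.75, 2.54 and 2.46 in WT and 6.45, 8.99 and 13.2 in *Npc1*-/- samples. *Scd3* stayed far below *Scd1* in every sample. On scaled TPM the samples of each genotype had the same order for both genes. On TPM as deposited, WT replicates 2 and 3 changed places for *Scd3* but not for *Scd1*. *Scd4* was too low to be tested, with at most 0.199.

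**Figure D3:**
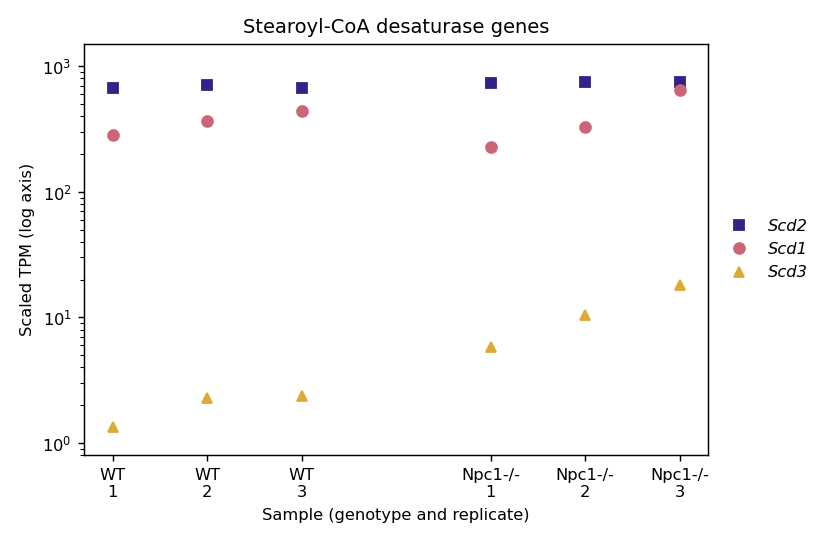
Scaled TPM (log axis) of *Scd2* (squares), *Scd1* (circles) and *Scd3* (triangles) in the 6 samples. *Scd2* is nearly level from 672 to 749, *Scd1* ranges from 227 to 641, and *Scd3* lies at 2.37 or less in WT and at 5.85 or more in *Npc1*-/- samples.

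*Fads2* (ENSMUSG00000024665, chromosome 19, minus strand, 10062765 to 10101746), the delta-6 desaturase that starts the conversion of essential to long polyunsaturated fatty acids, was the only one of the 10 genes with a lower mean in *Npc1*-/- cells. The WT mice had 90.5, 75.7 and 70.3 scaled TPM, and the *Npc1*-/- mice 67.2, 60.9 and 56.4. Every *Npc1*-/- value lay below every WT value (two-sided exact permutation test, p = 0.1). The log2 fold change was −0.35 (95% confidence interval −0.63 to −0.068), a mean 0.78 times that of WT, with an adjusted p of 0.147 by limma. With each sample left out in turn it stayed between −0.43 and −0.25. *Fads1*, the delta-5 desaturase that acts after it and is named here for the ratio below, had 76.8, 75.8 and 74.0 in WT and 66.7, 61.6 and 68.0 in *Npc1*-/- samples, a log2 fold change of −0.21 (adjusted p = 0.186 by limma). The ratio of *Fads2* to *Fads1* was 1.18, 0.999 and 0.95 in WT and 1.01, 0.989 and 0.83 in *Npc1*-/- samples, which overlap (log2 difference −0.14, two-sided exact permutation test, p = 0.5, or 0.625 after adjustment). The microglia and vascular markers all had negative fold changes too, as did 6 of 7 astrocyte markers. Their part in the values of *Fads2* was not tested.

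Among the elongases, *Elovl1* showed the largest difference of all 10 genes. ELOVL1 lengthens saturated and monounsaturated chains to the very long chains found in myelin sphingolipids. The gene (ENSMUSG00000006390) lies on the plus strand of chromosome 4 from 118428093 to 118432953. The WT mice had 74.1, 77.2 and 73.5 scaled TPM, and the *Npc1*-/- mice 100.5, 113 and 93.1, with no overlap (two-sided exact permutation test, p = 0.1). The mean was 1.36 times that of WT, a log2 fold change of 0.44 (95% confidence interval 0.22 to 0.67) with an adjusted p of 0.0633 by limma, which missed the threshold. Over the alternatives the adjusted p ranged from 0.0237 to 0.809, the highest on TPM as deposited. Without *Npc1*-/- replicate 3 it was 0.0481, with a log2 fold change of 0.50. The markers of myelinating oligodendrocytes also had positive fold changes, 8 of 8, and their part in the values of *Elovl1* and *Fasn* was not tested. The end of *Elovl1* overlaps that of *Cdc20* on the other strand. *Cdc20* had 4.35, 2.04 and 1.64 scaled TPM in the WT mice, compared with 4.41, 3.19 and 1.29 in the *Npc1*-/- mice, small against *Elovl1*.

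The other elongases overlapped or differed less. *Elovl5* (ENSMUSG00000032349, chromosome 9, plus strand, 77917364 to 77984519), which acts on polyunsaturated chains, had 63.1, 62.7 and 56.8 in WT and 63.6, 72.8 and 65.7 in *Npc1*-/- samples. All *Npc1*-/- values were higher, by as little as 63.6 against 63.1, and the log2 fold change was 0.14 (−0.071 to 0.36, adjusted p = 0.412 by limma). *Elovl7* (ENSMUSG00000021696, chromosome 13, plus strand, 108214404 to 108285683), which is enriched in oligodendrocytes, had 31.5, 26.6 and 24.9 in WT and 37.1, 32.8 and 26.9 in *Npc1*-/- samples. The ranges overlapped and the log2 fold change was 0.21 (−0.12 to 0.55, adjusted p = 0.441 by limma). *Elovl6* (ENSMUSG00000041220, chromosome 3, plus strand, 129532355 to 129638495), which makes stearate from palmitate, had 38.7, 39.1 and 32.5 in WT and 46.5, 35.5 and 30.8 in *Npc1*-/- samples. The *Npc1*-/- samples held both its highest and its lowest value, and the log2 fold change was 0.016 (−0.36 to 0.39, adjusted p = 0.965 by limma), with a negative sign without WT replicate 3 (−0.071) or without *Npc1*-/- replicate 1 (−0.14). *Elovl6* and *Elovl7* overlap predicted genes on the other strand (*Gm35986*, *Gm32376* and *Gm30747*), so their reads may not be fully separable.

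Ratios between elongases within a sample overlapped between the genotypes. *Elovl7* over *Elovl1* was 0.425, 0.345 and 0.34 in the WT mice, compared with 0.369, 0.29 and 0.289 in the *Npc1*-/- mice (log2 difference −0.23, two-sided exact permutation test, p = 0.3, or 0.625 after adjustment over 5 ratios). That of *Elovl6* to *Elovl5* was 0.613, 0.623 and 0.572 in WT, and 0.731, 0.487 and 0.469 in *Npc1*-/- samples (log2 difference −0.13, p = 0.5 by the same exact test, 0.625 after adjustment).

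The rest of the pathway was read from lists of 60 other genes. 1 of them (*Hsd17b8*) was not found under its symbol, *Elovl3* was listed at 0 in every sample, and *Scd4* was too low, which left 57 tested. Of these, 1 was differentially expressed (0.813% of all genes tested were), with 26 positive and 31 negative fold changes and a median of −0.032 on the log2 scale. The groups did not overlap in 13 genes that were higher and 7 that were lower, where 13.3% and 14.2% of all genes tested did so. The gene called was *Fabp5*, a carrier of fatty acids in the cytosol. It rose from 152, 174 and 176 in WT to 276, 315 and 306 in *Npc1*-/- samples, which is 0.84 on the log2 scale with a standard error of 0.10 (limma, adjusted p = 0.0364). That call was lost on TPM as deposited (0.0967), without the filter on low values (0.0903), without the variance trend (0.0562) and when any sample but *Npc1*-/- replicate 3 was left out, with adjusted p up to 0.187.

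Supply of acetyl-CoA, malonyl-CoA and NADPH held 7 genes, none called, with a median log2 fold change of 0.17. *Acss2*, which makes acetyl-CoA from acetate, had 32.2, 34.0 and 33.6 in WT and 42.5, 43.9 and 44.9 in *Npc1*-/- samples (log2 fold change 0.39, adjusted p = 0.0567 by limma). *Acacb*, whose product malonyl-CoA restrains the entry of fatty acids into mitochondria, had 6.15, 5.59 and 6.49 against 3.01, 3.53 and 4.46 (−0.67, adjusted p = 0.0669). In both genes the groups did not overlap. Of the 6 partners of the elongases in the elongation cycle, *Hacd1*, a dehydratase, had the largest fold change (0.43, adjusted p = 0.0977) and *Hacd4* the lowest (−0.28, adjusted p = 0.445). The list as a whole had 3 positive and 3 negative values. Of the electron donors of the desaturases, *Cyb5r3* had 141, 164 and 169 in WT and 193, 297 and 390 in *Npc1*-/- cells (0.84, adjusted p = 0.103), with all *Npc1*-/- values above WT, while *Cyb5a* was at 0.0077 (adjusted p = 0.978). The other tested elongases, *Elovl2* (−0.51, adjusted p = 0.133) and *Elovl4* (−0.13, adjusted p = 0.747), had negative fold changes. *Fads3*, the lowest of the other desaturases, was at −0.54 (adjusted p = 0.315).

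Regulators of the pathway divided into 5 positive and 6 negative fold changes, with a median of −0.076. *Insig1*, which holds SREBP in the endoplasmic reticulum and is itself an SREBP target, had 28.5, 24.5 and 25.1 in WT and 41.0, 39.1 and 33.4 in *Npc1*-/- samples. These values did not overlap (log2 fold change 0.53, adjusted p = 0.0602 by limma). *Mlxipl*, which encodes ChREBP, was at the other end (−0.49, adjusted p = 0.394) and low throughout, with at most 0.88. *Srebf1*, the SREBP gene most tied to fatty acid synthesis, is named after its values were seen. It had 22.2, 19.1 and 17.7 in WT and 19.0, 16.5 and 19.9 in *Npc1*-/- samples, with overlap (−0.089, adjusted p = 0.718). Of the 4 tested genes of mitochondrial fatty acid synthesis, *Mecr* was highest (0.30, adjusted p = 0.122) and *Cbr4* lowest (−0.043, adjusted p = 0.935). *Fa2h*, which 2-hydroxylates fatty acids for myelin galactolipids, had 188, 218 and 214 in WT and 241, 266 and 239 in *Npc1*-/- samples (0.27, adjusted p = 0.179). Beside *Fabp5*, the list of activation and binding genes reached down to *Acsl6*, an acyl-CoA synthetase (−0.38, adjusted p = 0.0944).

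Fatty acid oxidation, the opposite process, had 8 negative fold changes among 9 genes, no call and a median of −0.091. *Cpt1a*, which admits long chains into mitochondria, had 30.9, 29.9 and 25.8 in WT and 21.7, 19.8 and 20.9 in *Npc1*-/- cells. All *Npc1*-/- values lay below WT (log2 fold change −0.46, adjusted p = 0.0623 by limma). Only *Cpt1c*, a brain form with little activity, was positive (0.21, adjusted p = 0.345). The microglia and vascular markers all had negative fold changes as well, and so did 6 of 7 astrocyte markers. Their part in these values was not tested.

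**Figure D4:**
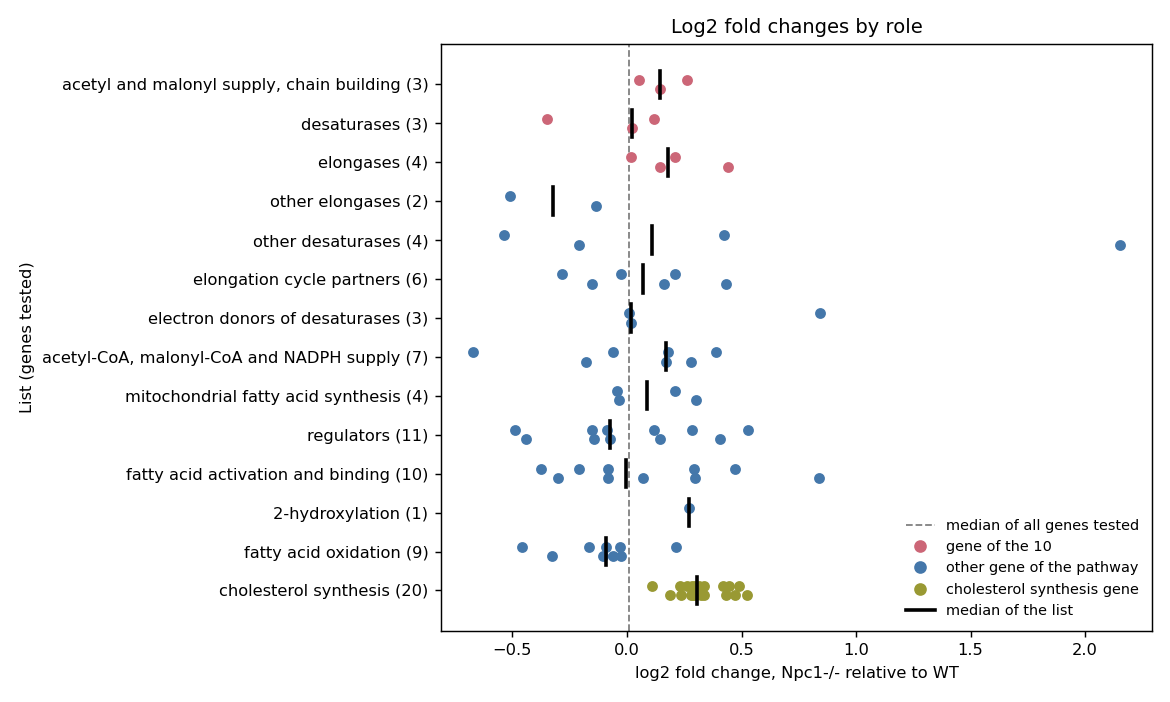
Log2 fold change (*Npc1*-/- relative to WT, size factors) of each tested gene by role, with the median of each list (black bar) and of all genes tested (dashed line). The cholesterol synthesis genes lie together between 0.11 and 0.53, the 10 fatty acid genes (red) spread from −0.35 to 0.44, and *Scd3* stands alone at 2.15.

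The genes of cholesterol synthesis, which share SREBP control with those of fatty acid synthesis, were read from a list of 20. All 20 had a positive fold change, with a median of 0.31 against 0.13 for the 10 fatty acid genes. With TPM as deposited and the median of all genes subtracted, the medians were 0.26 and 0.085. Without that subtraction both medians were negative, as the median of all genes was −0.33. In 13 of the 20 every *Npc1*-/- sample exceeded every WT sample, against 3 of the 10 and 13.3% of all genes tested. The 8 markers of myelinating oligodendrocytes were all positive as well, and their part in these values was not tested. None of either list was called, and the difference between the lists was not tested. The lists were drawn up with earlier results on cholesterol genes known, so their direction is no independent evidence. The study's single-nucleus RNA data, by contrast, were reported to show cholesterol synthesis lower in *Npc1*-/- immature oligodendrocytes. Those were nuclei from forebrain, not O4+ cells of whole brain.

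The genes whose levels over the 6 samples were most like the mean of the 10 were sought among the 9140 other genes whose mean TPM was 5 or more. That mean, after centring each gene on the log2 scale, was −0.067, −0.012 and −0.081 in the WT mice, compared with 0.05, 0.054 and 0.056 in the *Npc1*-/- mice. The 5 genes with the highest Pearson correlation were *Vps4a* (0.998), *Tsr1* (0.993), *Coq10a* (0.989), *Gm13577* (0.987) and *Gnpat* (0.983). Over only 6 samples, with so many genes searched, these values are a description. Their log2 fold changes, in the same order, were 0.11, 0.60, 0.33, 3.74 and 0.12, and none was called (adjusted p of 0.0557 or more by limma). *Gnpat*, the last of the 5, starts the synthesis of ether lipids, in peroxisomes.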

How the data were processed

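The submitters' processing notes list cutadapt 2.3, STAR 2.7.8a and RSEM 1.3.3 with GRCm38, whereas the study's methods name bbduk, STAR v2.7.9a and featureCounts, so which made the tables is not settled. The authors deposited TPM and FPKM for each gene and sample with 2 decimals, and no counts. Within a sample, FPKM was TPM times 1 factor. TPM was divided by median-of-ratios size factors (18690 genes), and log2(scaled TPM + 0.5) was fitted with limma 3.58.1 (R 4.3.3, eBayes with trend, two-sided) with genotype as the only factor, over the 15245 genes that averaged 0.5 TPM or more. Fold changes on this scale are understated for low genes. Standard errors are moderated ones. The p-values were adjusted by Benjamini-Hochberg over all these genes, with the study's limits (adjusted p below 0.05 and a log2 fold change of 0.1 or more in size). DESeq2, which the study used, needs counts and was not run. Ratios were compared by exact permutation (20 arrangements). Depth came from FPKM steps in genes with 1 transcript, where 83.4% to 86.3% of the low values lay within 0.15 of whole fragments (fragment length 240 or 250 bases). Genes with several transcripts were not used for this estimate. Positions and transcripts came from GENCODE M21 (55227 of 55492 identifiers matched), promoter windows from RefSeq. The scripts were tested on simulated data. The genes, lists and tests were chosen with earlier results of these data known. Named are the 10 genes, of each pathway list the genes called, the largest and the smallest fold change, the 5 most alike genes and *Npc1*. Alternatives were FPKM, quantile normalization, TPM as deposited, a pseudocount of 0.1 or 1, no filter or one at a mean of 5 TPM, limma with robust estimation or with no trend, a loess curve (span 0.3) on the longest transcript's length, the replicate number as a block, and each sample left out. Python 3.11.15 with scipy 1.17.1 and matplotlib 3.10.9 was used.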

Additional observations from a re-analysis of the deposited data

How the results depend on the processing

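The count of differentially expressed genes (124) was 924 on TPM as deposited (54 higher and 870 lower, against 61 and 63), 225 with quantile normalization (92 and 133), 21 without a filter (14 and 7), 447 at a mean TPM of at least 5 (175 and 272), 42 without trend (26 and 16) and between 5 and 477 with a sample left out (477 without *Npc1*-/- replicate 3, 106 and 371, and 5 without *Npc1*-/- replicate 2, 4 and 1; the other four gave 8 to 20). Of the 10 genes, 0 or 1 was called with a sample left out. Same-numbered samples come from different mice. Their deviations correlated at 0.414, 0.0602 and 0.326, each the highest for its sample, a hint from the data only, and the number is not taken as a pairing. With the replicate block 2011 genes and 2 of the 10 (*Elovl1*, adjusted p = 0.0237, and *Fads2*, 0.0301) were called. With the replicate block and the length curve there were 1669 and 3 (also *Fasn*, 0.0331, by limma).

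On TPM as deposited the sign turned for *Acly* (−0.23), *Acaca* (−0.32), *Fasn* (−0.11), *Scd1* (−0.35), *Scd2* (−0.26), *Elovl5* (−0.23), *Elovl6* (−0.35), *Elovl7* (−0.16), *Cyb5a* (−0.36), *Mecr* (−0.054), *Fa2h* (−0.10) and *Cpt1c* (−0.14), where the median of all genes was −0.33. With quantile normalization it turned for *Acaca* (−0.011), *Scd1* (−0.29), *Scd2* (−0.20), *Elovl6* (−0.024), *Cyb5a* (−0.15) and *Cbr4* (0.0046). With the length curve, alone and with the replicate block, it turned for *Cyb5a* (−0.13). With a sample left out, values changed sign within −0.084 to 0.16 (*Acaca*), −0.39 to 0.36 (*Scd1*), −0.14 to 0.14 (*Elovl6*), −0.31 to 0.041 (*Elovl4*), −0.10 to 0.091 (*Cyb5a*), −0.21 to 0.18 (*Cbr4*) and −0.50 to 0.23 (log2 of *Scd1* over *Scd2*). The cause of these changes was not tested. The values keep 2 decimals and no counts, so counting error could not be modelled, and 3 mice a group limit each test.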

Other observations

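Genes that take up, store and release fatty acids were looked at as a list of 18 genes drawn up after the results above were known, of which 15 were tested. *Dgat2*, which makes triglycerides, rose from a scaled TPM of 15.6, 17.1 and 17.8 in WT to 31.1, 30.4 and 28.6 in *Npc1*-/- replicates 1, 2 and 3, a log2 fold change of 0.82 (adjusted p = 0.0227 by limma, where 0.4% of all genes were called higher). It was the only one of the 15 that passed. The call was lost on TPM as deposited (0.217) and when any sample but *Npc1*-/- replicate 3 was left out, with adjusted p up to 0.167. *Dgat1*, with the same role, had 8.04, 6.65 and 7.10 in WT and 6.84, 6.55 and 4.11 in *Npc1*-/- cells, with overlapping groups (−0.32, adjusted p = 0.386). *Mfsd2a*, a carrier of lysophospholipids with long polyunsaturated chains, had 91.3, 81.4 and 87.5 in WT and 61.7, 68.3 and 58.2 in *Npc1*-/- cells. All its *Npc1*-/- values were below WT (−0.47, adjusted p = 0.0589 by limma). The 5 endothelial and mural markers also had negative fold changes, and their part in this value was not tested.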
